A study of Mus musculus with 6 samples.

Results

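The genes described here are 10 components, regulators and receptors of the complement system, taken by symbol from a table of 55359 mouse genes: C1qa, C1qb, C1qc, C4b, C3, Cfb, Cfp, Serping1, C3ar1 and C5ar1. They were read in myeloid-derived suppressor cells (MDSCs), immature myeloid cells that restrain T cells, cultured over 4 days out of C57BL/6 bone marrow in GM-CSF and IL-6 at 40 ng/ml each and then isolated as the polymorphonuclear fraction with a commercial kit. In the mtDNA group the re-seeded cells had been transfected with mitochondrial DNA at 250 ng/ml by a lipid reagent, and RNA was taken after 12 h; the blank group was not given the DNA. The labels name no genotype beyond C57BL/6, no age and no purity, and do not say whether blank cells met the reagent, so DNA and reagent cannot be told apart, nor can mtDNA and any other DNA. Each group had 3 poly(A) RNA-seq libraries of 4018360 to 4911103 counts. A single read equalled 0.204 to 0.249 CPM, the count after scaling to library size, here by the library total alone. The CPM of genes given below also carry the scaling factors named under processing. Nothing in the labels ties the libraries to separate animals or wells, and each p-value therefore reflects just the spread among these 6 libraries, part of which may be technical.

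Complement is a cascade of plasma proteins that tags microbes and debris for removal. C1q, built of A, B and C chains, recognises targets and starts the classical pathway, which runs through C4; factor B (Cfb) and properdin (Cfp) drive the alternative pathway, and both pathways cleave C3. The small fragments C3a and C5a act on their receptors, encoded by C3ar1 and C5ar1, and Serping1 encodes the inhibitor that restrains C1. The liver makes most circulating complement, while myeloid cells are known sources of C1q, C3 and properdin and carry the receptors.

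The receptor gene C3ar1 stood apart, at about 2-fold its blank level in mtDNA cells. C1qb, C5ar1, C3 and Cfp rose by 1.13-fold to 1.27-fold. C1qa and C1qc did not pass the test, and C4b, Cfb and Serping1 had too few reads to enter it. Of the 7 members tested, 5 rose and 0 fell (edgeR adjusted p under 0.05 over all 11190 genes tested; at an unadjusted p under 0.05, and in DESeq2 and limma-voom, the counts were also 5 and 0). Among all tested genes 17.8% were called, 11.9% higher and 5.98% lower. The members were chosen with earlier results of these data known, so the counts describe them and are no test of the group. The share over all genes is also not matched for level: Cfp and C3 ranked 101 and 218 per kilobase among 11179 genes. In 5 of the 7 members the mtDNA libraries all lay above the blank ones, as they did in 17.9% of all tested genes, while 15.6% showed the opposite separation and no member did. Tested members had a median of 0.19 in log2 fold change, beside -0.01 for all tested genes. Scaling of the libraries bears on the small rises: with upper-quartile factors, or with library totals alone, 2 members were called, C3ar1 and C1qb.

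**Figure D1:**
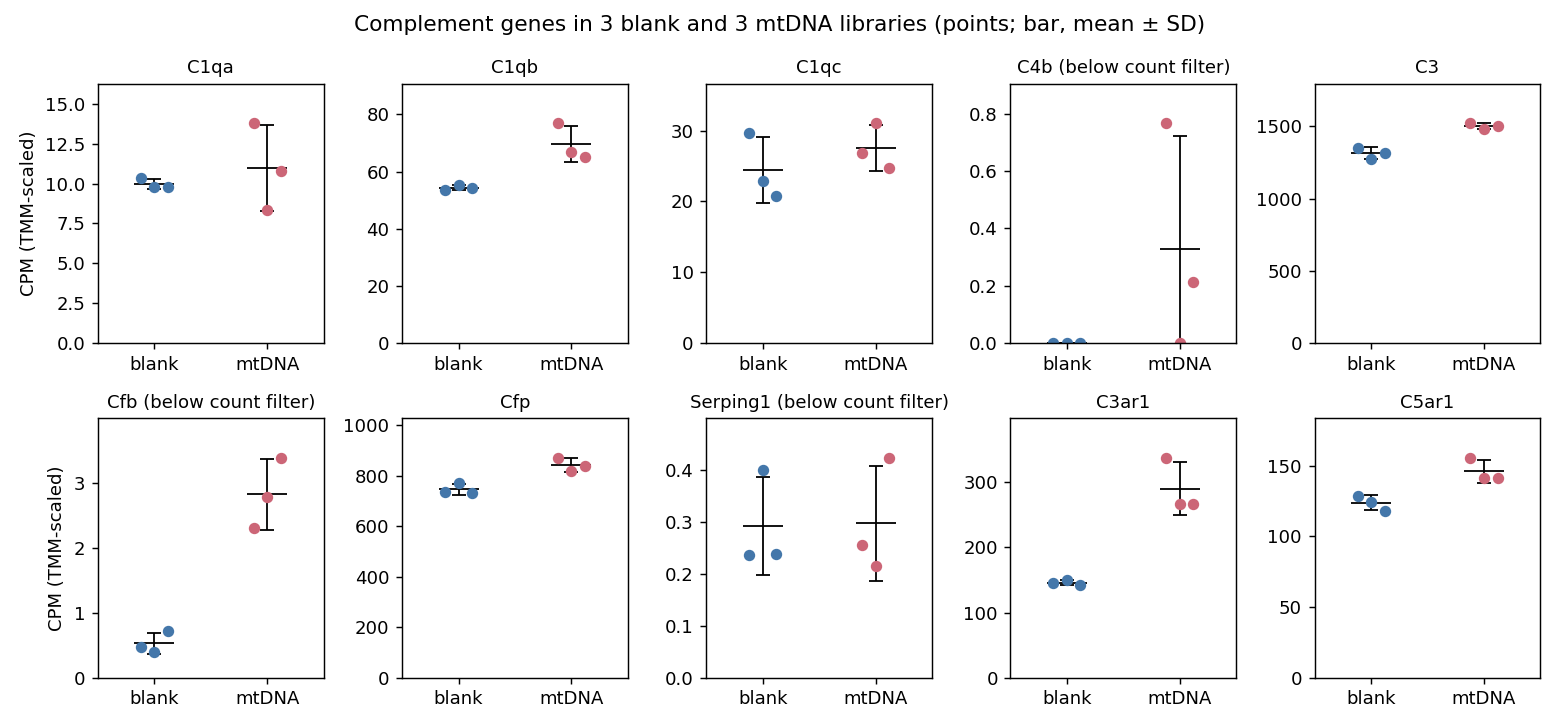
Level of each of the 10 genes in CPM (y axis, from 0, scaled per gene) in the 3 blank and 3 mtDNA libraries; points are libraries, and bars give the mean and SD. Relative to its own level C3ar1 shows the widest gap of the 7 tested members, from 142 to 150 CPM in blank and 266 to 337 CPM in mtDNA libraries, while the points of C1qa, C1qc and Serping1 overlap.

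The sequences upstream of C3ar1, of its companion receptor gene C5ar1 and of C3, the most abundantly read member, are shown because C3ar1 had the largest rise of the tested members, C5ar1 a small one, and C3 encodes the precursor of the ligand C3a. They are the 250 bases before the RefSeq start site on the minus strand of GRCm38.p6, an earlier build than the one the counts were made on, at chr6:122856158-122856407 for C3ar1, chr7:16259339-16259588 for C5ar1 and chr17:57228137-57228386 for C3. Capitals mark the letters TGACTCA, a site of AP-1 factors, in C3ar1 and a match to TTGCNNAA, a core of C/EBP sites, in C3.
C3ar1: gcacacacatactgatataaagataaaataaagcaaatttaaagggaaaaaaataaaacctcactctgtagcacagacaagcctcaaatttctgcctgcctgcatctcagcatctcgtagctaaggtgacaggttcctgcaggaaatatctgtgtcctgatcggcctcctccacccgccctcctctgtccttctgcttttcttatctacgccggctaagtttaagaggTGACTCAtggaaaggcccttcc
C5ar1: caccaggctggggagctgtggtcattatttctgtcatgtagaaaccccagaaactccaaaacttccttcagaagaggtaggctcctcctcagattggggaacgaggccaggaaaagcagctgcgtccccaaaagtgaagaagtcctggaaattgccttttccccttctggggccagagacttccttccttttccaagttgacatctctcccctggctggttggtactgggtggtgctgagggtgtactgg
C3: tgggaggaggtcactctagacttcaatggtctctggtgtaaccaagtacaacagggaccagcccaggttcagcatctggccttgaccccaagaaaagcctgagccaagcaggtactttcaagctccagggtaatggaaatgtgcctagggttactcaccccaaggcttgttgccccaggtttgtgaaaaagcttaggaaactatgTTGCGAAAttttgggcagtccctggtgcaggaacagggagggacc

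Promoter windows of 300 bases (250 before and 50 after the start) were found for 6 of the 10 members, namely C1qb, C1qc, C3, Cfp, C3ar1 and C5ar1. Both strands were searched for the core of the interferon-stimulated response element (GAAA and GAAA with 2 bases of any kind between them) and for TTCNNNGAA, the core of the gamma-activated sequence. None of the 6 windows held either, where 3.45% and 8.33% of 32544 RefSeq promoter windows did. TGACTCA and TTGCNNAA were looked for after these windows had been read, and occur in 5.19% and 10.8% of all windows. In C3ar1 the AP-1 letters lie 22 to 16 bases before the start, and in C3 the C/EBP letters lie 45 to 38 bases before it. A match is a description of letters, and a missing one says only that those letters are not in that window.

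Of the receptors, C3ar1 (ENSMUSG00000040552), which encodes the C3a receptor, read 146, 150 and 142 CPM in blank libraries 1, 2 and 3 and 337, 266 and 267 CPM in mtDNA libraries 1, 2 and 3. Every mtDNA library lay above every blank one, and mtDNA 1 was the highest. Group means were 146 ± 4.15 and 290 ± 40.6 CPM (SD, n = 3). In edgeR the log2 fold change came to 0.99 with an SE of 0.075 and an adjusted p of 9.83e-10, and 3 of 3 mtDNA libraries were higher. It ranked 176 by p and 289 by fold change among the 11190 tested genes. Without mtDNA 1 the log2 fold change was 0.87, the lowest of the 14 alternatives, and all 14 kept the call.

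C5ar1 (ENSMUSG00000049130), which encodes the main C5a receptor of neutrophils and macrophages, read 129, 124 and 118 CPM in blank libraries and 155, 141 and 141 CPM in mtDNA libraries. The groups did not overlap, and mtDNA 2 and mtDNA 3 lay nearest to blank 1. The log2 fold change was 0.24 ± 0.063 (edgeR adjusted p = 0.0106), with a 95% interval of 0.11 to 0.37. The call ended without blank 3 (adjusted p = 0.0663) and without mtDNA 1 (0.0586), with upper-quartile factors (0.0716) and with library totals alone (0.160).

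The receptors were also compared inside each library, where the scaling between libraries cancels. The log2 ratio of C3ar1 to C5ar1 counts was 0.18, 0.27 and 0.26 in blank libraries and 1.12, 0.92 and 0.92 in mtDNA libraries. All mtDNA libraries had the higher ratio. The means of 0.24 ± 0.050 and 0.99 ± 0.11 (SD, n = 3 per group) differed by 0.75 (two-sided exact permutation test, p = 0.1, which no design of 3 against 3 can undercut). Leaving out any single library gave differences of 0.68 to 0.78. C5ar2, the second C5a receptor, was thinly read, with 130 reads in blank and 123 in mtDNA libraries, and its log2 fold change of -0.07 had a 95% interval of -0.46 to 0.33 (edgeR adjusted p = 0.859).

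**Figure D2:**
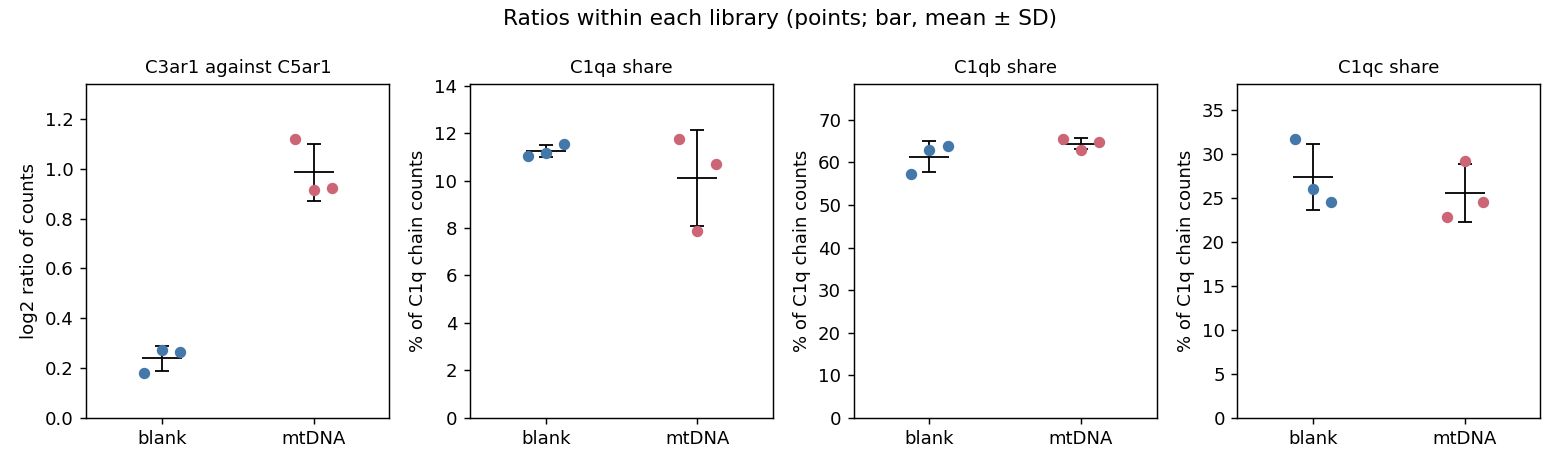
Ratios inside each library, by group: the log2 ratio of C3ar1 to C5ar1 counts, and the percent that C1qa, C1qb and C1qc each take of the summed C1q chain counts (y axes, from 0). Points are libraries, with mean and SD bars; the receptor ratio separates the groups, 0.18 to 0.27 against 0.92 to 1.12, while the chain shares overlap.

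Among the chains of C1q, C1qb (ENSMUSG00000036905) read 53.7, 55.3 and 54.2 CPM in blank libraries and 76.9, 66.8 and 65.2 CPM in mtDNA libraries. The blank libraries lay close together and all mtDNA libraries were higher. The log2 fold change was 0.35 ± 0.080 (edgeR adjusted p = 0.00342), and all 14 alternatives kept the call, with values of 0.23 to 0.40. C1qc (ENSMUSG00000036896) read 29.7, 22.8 and 20.8 CPM in blank and 26.8, 31.1 and 24.8 CPM in mtDNA libraries. Its groups overlapped, since blank 1 exceeded mtDNA 1 and mtDNA 3 (log2 fold change 0.18, 95% interval -0.10 to 0.45, edgeR adjusted p = 0.404). C1qa (ENSMUSG00000036887) read 10.4, 9.82 and 9.79 CPM in blank and 13.8, 8.35 and 10.8 CPM in mtDNA libraries. These too overlapped, with mtDNA 2 the lowest of all 6 (log2 fold change 0.12, 95% interval -0.27 to 0.51, edgeR adjusted p = 0.727), and without mtDNA 1 the value was -0.06.

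That C1qb passed the test while C1qa and C1qc did not does not show a difference between the chains. C1qb took 57.3%, 62.9% and 63.9% of the C1q chain counts in blank libraries and 65.4%, 62.9% and 64.7% in mtDNA libraries, and the groups overlapped, with mtDNA 2 below blank 3. The mean shares were 61.4% ± 3.57 and 64.3% ± 1.30 (SD, n = 3 per group; exact two-sided permutation p = 0.2, and 0.6 adjusted over the 3 chains). For C1qa the mean shares were 11.3% ± 0.260 and 10.1% ± 2.01 (exact permutation p = 0.5), and for C1qc 27.4% ± 3.78 and 25.5% ± 3.31 (exact permutation p = 0.6), both 0.6 adjusted. Without blank 1 the difference in the C1qb share shrank from 2.98 to 0.941 percentage points, and that of C1qa went from -1.15 to -0.0287 without mtDNA 2 and to -1.97 without mtDNA 1. That of C1qc was -1.83, and 0.309 without blank 1. The summed C1q level was 84.8 to 93.7 CPM in blank and 101 to 118 CPM in mtDNA libraries.

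C3 (ENSMUSG00000024164), the component on which the pathways converge, read 1354, 1274 and 1316 CPM in blank libraries and 1523, 1480 and 1504 CPM in mtDNA libraries. All mtDNA libraries were higher, by a margin that is small beside the level. The log2 fold change was 0.19 ± 0.044 (edgeR adjusted p = 0.00306). It was 0.12 with upper-quartile factors (adjusted p = 0.0591) and 0.07 with library totals alone (0.187), which end the call.

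Cfp (ENSMUSG00000001128), which encodes properdin, the stabiliser of the alternative pathway convertase, read 736, 771 and 731 CPM in blank and 870, 818 and 837 CPM in mtDNA libraries. The groups were separate, with blank 2 and mtDNA 2 nearest to each other. The log2 fold change was 0.17 ± 0.047 (edgeR adjusted p = 0.0118), and the call ended without blank 3 (adjusted p = 0.0667), with upper-quartile factors (0.144) and with library totals alone (0.384). The median of all tested genes itself moved from -0.01 to -0.09 and to -0.13 under these scalings. Measured from that median, C3 stood 0.20 to 0.21 higher in log2 under the 4 scalings run, Cfp 0.18 to 0.19 higher, C5ar1 0.25 higher and C3ar1 1.00 higher. A change of scaling shifts all genes nearly alike, so these values had to stay almost constant. They give the position of each gene and do not test its rise.

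**Figure D3:**
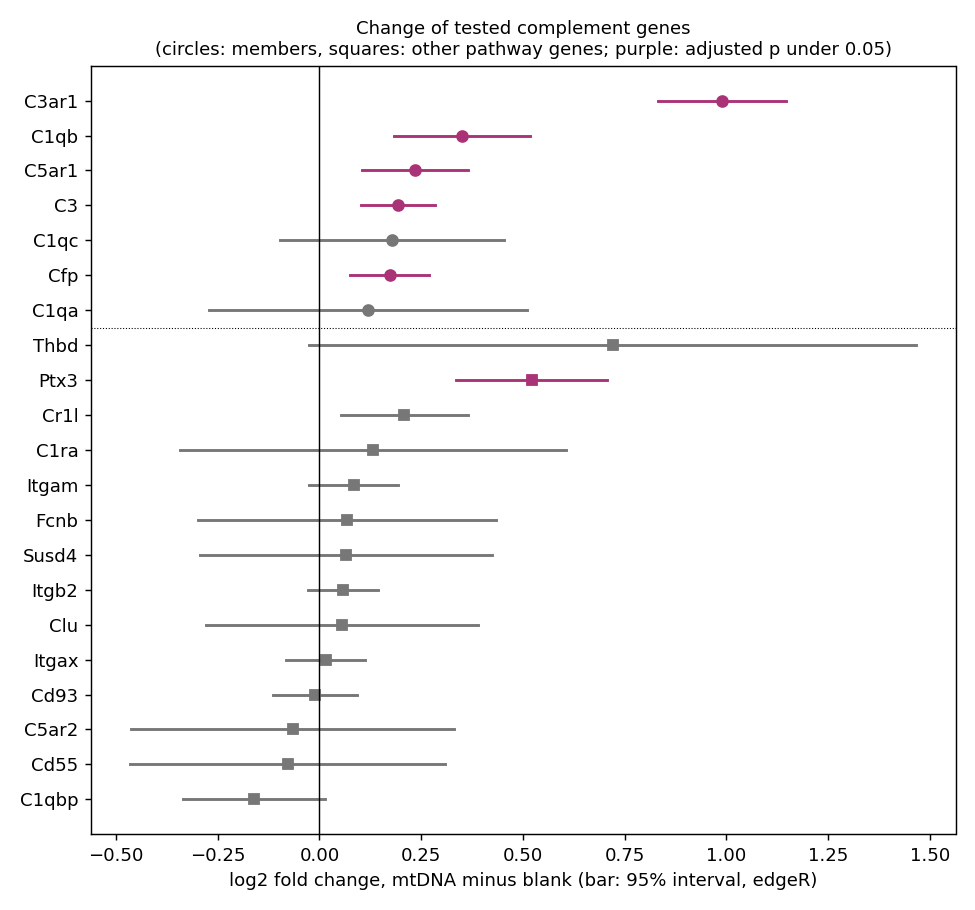
Log2 fold change, mtDNA minus blank (x axis), with 95% intervals from edgeR, for the 7 tested members (circles) and the 14 other tested complement genes (squares); purple marks adjusted p under 0.05. C3ar1 lies at 0.99, apart from the other members at 0.12 to 0.35, and Ptx3 at 0.52 is the called gene below the dotted line.

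Cfb (ENSMUSG00000090231), the protease of the alternative pathway convertase, had 2, 2 and 3 reads in blank libraries and 9, 13 and 16 reads in mtDNA libraries. Every mtDNA library held more reads than any blank one, yet the gene stayed under the expression filter. The ratio of its summed reads per library size was 5.48, with a counting interval of 2.42 to 14.5 (95%, exact). With no filter the fit gave a log2 fold change of 2.38 ± 0.52 (edgeR adjusted p = 0.000132). The p-values of that fit are not on the scale of the others given here. For C3ar1 its edgeR adjusted p was 3.80e-57, against 9.83e-10 with the filter. Cfb also entered the test and was called in 4 of the 6 omissions of 1 library (edgeR adjusted p of 0.00153 to 0.00840). Its reads in mtDNA libraries are what carried it past the filter there, so these calls are no further support for a rise. The level of Cfb is uncertain. In GENCODE M21, on the earlier build, 79.5% of its exon bases lie under Gm20547, a gene model on the same strand, and STAR's per-gene counts assign no read that overlaps more than 1 gene. Gm20547 has a row in the table, with 0 reads in all 6 libraries.

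C4b (ENSMUSG00000073418), which encodes complement C4, had 0 reads in blank libraries and 3, 0 and 1 reads in mtDNA libraries. With the blank group as a whole set to a floor of 3 counts, the ratio is 1.35. That ratio leaves out the counting error of the 4 mtDNA reads and is no lower bound. In the fit with no filter the edgeR adjusted p of C4b was 0.325. Of its read-length windows of 75 bases 23.5% also occur in the neighbouring copy C4a, so reads can be lost to both. C4a had 7, 7 and 5 reads in blank and 11, 6 and 16 in mtDNA libraries, below the filter. Serping1 (ENSMUSG00000023224), the C1 inhibitor gene, had 1, 2 and 1 reads in blank and 1, 1 and 2 reads in mtDNA libraries. The 4 reads of either group give a ratio of 1.01 with a counting interval of 0.188 to 5.42, and this depth is too shallow to show a difference either way. No other member shared a read-length window with another gene or lay under one.

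Levels were set against each other per kilobase of the longest GENCODE M21 transcript. In blank cells Cfp was highest at 456 ± 13.3 CPM per kilobase, then C3 at 256 ± 7.71, C1qb at 50.0 ± 0.763, C5ar1 at 48.7 ± 2.10, C3ar1 at 33.9 ± 0.965, C1qc at 20.3 ± 3.87 and C1qa at 9.60 ± 0.309 (SD, n = 3). C1qb and C5ar1 did not differ beyond their spread. In mtDNA cells the order of the first 2 was kept, at 514 ± 16.0 for Cfp and 292 ± 4.18 for C3. C3ar1, at 67.4 ± 9.44, came level with C1qb at 64.0 ± 5.83 and C5ar1 at 57.4 ± 3.25 CPM per kilobase, whose spreads overlap. Averaged over the groups, Cfp ranked 101 and C3 218 among 11179 tested genes with a transcript length, and C1qa ranked 5493.

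The other complement genes formed a list of 48. In it 14 genes had enough reads to be tested, 17 had reads below the filter and 17 had no read. As a background, 11.9% of all tested genes were called higher and 5.98% lower by edgeR. Of the 14, 1 rose and 0 fell (edgeR; 2 and 0 at an unadjusted p under 0.05, 1 and 0 in DESeq2 and in limma-voom), and the 14 log2 fold changes had a median of 0.06. The gene that rose was Ptx3, a soluble pattern recognition molecule that binds C1q, with 248, 240 and 266 reads in blank and 340, 374 and 360 reads in mtDNA libraries (log2 fold change 0.52 ± 0.089, edgeR adjusted p = 0.000163). All 14 alternatives kept that call. Cr1l, the rodent membrane regulator of C3 convertases, had a log2 fold change of 0.21 (95% interval 0.05 to 0.36, edgeR adjusted p = 0.0591). The genes of complement receptor 3 differed little: Itgam had 0.08 (95% interval -0.03 to 0.19) and Itgb2 0.06 (-0.03 to 0.14), with edgeR adjusted p of 0.309 and 0.386. C1qbp, a mitochondrial protein named for its binding to C1q, had -0.16 (edgeR adjusted p = 0.209), and was called lower under library totals (adjusted p = 0.0184) and under upper-quartile factors (0.0475). Factor D, factor I, the C4-binding protein and the pore components C6, C7, C8b and C9 were among the genes with no read. By the library total alone, 3 reads in a library would be 0.611 to 0.747 CPM.

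Markers were read for the cell types that a culture of this kind could hold. Beside the counts of called markers given for each type, 11.9% of all tested genes were called higher and 5.98% lower by edgeR. The labelled polymorphonuclear fraction carried S100a8 at 1698 ± 65.3 CPM and Ly6g at 4.87 ± 0.954 CPM in blank libraries, beside the macrophage markers Csf1r at 1424 ± 16.0 and Adgre1 at 501 ± 18.0 CPM. Of 12 monocyte and macrophage markers 7 rose and 0 fell (edgeR; 8 and 1 at an unadjusted p under 0.05, 5 and 0 in DESeq2, 7 and 0 in limma-voom). Their summed level was 3590 to 3719 CPM in blank and 4583 to 4879 CPM in mtDNA libraries, with log2 fold changes from -0.68 for Apoe (edgeR adjusted p = 0.0789) and -0.08 for Cx3cr1 to 1.07 for Mertk and 2.54 for Fcgr1. The defining markers Csf1r and Adgre1 had 0.12 and 0.09. Of 12 neutrophil markers 1 rose and 0 fell (edgeR; 1 and 0 in DESeq2, 2 and 0 in limma-voom, 2 and 1 unadjusted), with sums of 7838 to 8258 and 8185 to 8818 CPM. Within the monocyte and macrophage list the widest gaps in mean level were those of 2 genes. Ly6c2 had 538 CPM in blank and 968 CPM in mtDNA libraries, and Fcgr1 had 56.4 and 327 CPM. The sum therefore does not stand for an equal rise of all 12 markers. This summed level was higher in the mtDNA libraries, as were C1qb, C3, Cfp, C3ar1 and C5ar1. The part of the sum in those results was not tested. In bulk RNA, a change in the number of cells of a type and in RNA per cell cannot be told apart.

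Other cell types gave less. Of 8 mast cell, basophil and eosinophil markers 1 rose and 1 fell (edgeR, and also limma-voom, with 0 and 0 in DESeq2). In edgeR the riser was Mcpt8, with 76.0 ± 2.11 CPM in blank and 91.7 ± 6.65 CPM in mtDNA libraries. Kit was the marker that fell, with blank libraries at 31.2 ± 2.46 and mtDNA libraries at 23.0 ± 0.891 CPM. The edgeR adjusted p of Mcpt8 was 0.0108 and that of Kit 0.00754, at log2 fold changes of 0.27 and -0.43. Sums for the 7 dendritic markers were 296 to 305 and 328 to 331 CPM, for the 7 lymphocyte markers 16.2 to 17.4 and 15.1 to 22.1 CPM, and for the 6 stromal and endothelial markers 38.7 to 46.4 and 40.9 to 42.5 CPM. None of the tested markers of these 3 lists was called by edgeR (1, 0 and 0 at an unadjusted p under 0.05; none in DESeq2, 1 dendritic in limma-voom). Ccr7 held most of the dendritic sum, at a mean of 278 CPM in blank and 307 CPM in mtDNA libraries. The defining dendritic markers Flt3 and Zbtb46 had 6.52 and 7.94 CPM in blank and 7.90 and 9.74 CPM in mtDNA libraries. Pecam1 held most of the stromal and endothelial sum, at 36.4 and 37.1 CPM. Erythroid markers summed to at most 2.20 CPM. Of 5 hepatocyte markers 4 had no read, Alb and Ttr among them.

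The gene whose profile over the 6 libraries lay nearest to that of each member was found by the root-mean-square difference of log2 CPM, taken relative to the blank mean, over 8593 candidate genes of at least 10 CPM. For C3ar1 it was Ccrl2, a chemerin-binding receptor, at a difference of 0.045 in log2 (its own log2 fold change was 1.02 ± 0.13). Within 0.1 lay 3 candidates for C1qa, 10 for C3ar1, 14 for C1qc, 271 for C1qb, 705 for C5ar1, 1161 for C3 and 1265 for Cfp. The nearest genes of the last 4, in the order Cfp, C3, C5ar1 and C1qb, were Plcg2, Nlrp3, Glb1 and Snx10, at 0.011, 0.018, 0.023 and 0.027. C1qc and C1qa had Ebi3 and S100a13 nearest, at 0.070 and 0.076. These distances carry both the difference between the groups and the spread among libraries, so they describe these 6 libraries. C1qc and Cfp had similar log2 fold changes, 0.18 and 0.17, yet 14 and 1265 candidates within 0.1. C1qc had 694 reads in all and Cfp 21210, and the part of depth in these counts was not tested.

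**Figure D4:**
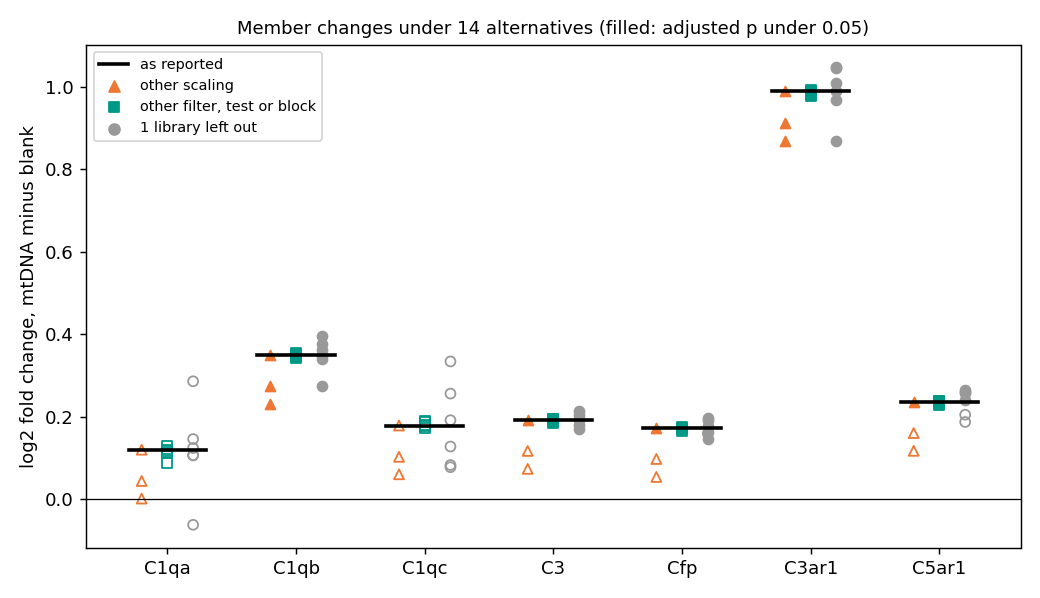
Log2 fold change of the 7 tested members (y axis) as reported (black line) and under 14 alternatives, with triangles for other scalings, squares for other filters or tests or a block and circles for 1 library left out; filled symbols have adjusted p under 0.05. C3ar1 stays between 0.87 and 1.05 and filled throughout, whereas C3, Cfp and C5ar1 lose the call under 2 of the scalings.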

How the data were processed

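The deposited table holds raw read counts per gene for 6 libraries, made by the authors with STAR 2.7.10a on GRCm39, per the submitters' processing notes and, for the per-gene output, per the file headers. The sources used here give neither the annotation release nor the strand setting. Symbols came from GENCODE M21 (GRCm38), which matched 52083 of 55359 IDs. All columns matched a labelled sample.

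The comparison of the 11190 genes passing edgeR's default filter used edgeR 4.0.16 under R 4.3.3: a two-sided quasi-likelihood test after TMM scaling (factors 0.947 to 1.05), p-values adjusted by Benjamini-Hochberg across the tested genes, called under 0.05. CPM carry the TMM factors, and fold changes run from blank to mtDNA. DESeq2 1.42.0, limma-voom (limma 3.58.1), other scalings and filters and omission of each library were alternatives, and a block on neighbouring title numbers was added after seeing the data. Within-library ratios were tested over all 20 assignments. For read ratios the intervals cover counting error only, and the floor leaves out the counting error of the mtDNA reads.

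No library was taken as a repeat of another, since counts of pairs inside a group varied beyond sampling noise (ratio of chi-square to its degrees of freedom 1.54 to 2.28). Separate libraries of the same cells can also vary beyond it, so these ratios do not show separate cultures or animals. The fit was tested on simulated counts of the 11190 genes in this comparison: edgeR found 22% of 1.2-fold changes, 78% of 1.5-fold, 96% of 2-fold and 98% of 4-fold ones, and 5.16% of its calls were false. There only a small part of the genes was changed, as many up as down, and variance followed the trend with level alone. The data held a larger share of calls, most of them rises, so these percentages may not carry over.

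Members and lists were chosen with earlier results of these data known. All 10 members were named, with the called pathway genes, the nearest profile of each member and defining markers. Cr1l, Itgam, Itgb2, C1qbp, C5ar2, C4a, Apoe, Cx3cr1, Fcgr1, Mertk, Ly6c2, Ccr7, Pecam1 and Kit were added after their values were seen.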

Additional observations from a re-analysis of the deposited data

How the results depend on the processing

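The number of complement members called higher was 2 with upper-quartile factors and 2 with library totals alone, against 5, and it was 4 to 6 when single libraries were left out. That range counts Cfb, which entered the test in 4 of the 6 omissions; of the 7 members tested with all libraries, 3 to 5 were called, with 3 without blank 3 and 4 without mtDNA 1. None was called lower by edgeR, DESeq2 or limma-voom under any of the 14 alternatives. In the list of other complement genes 1 was called lower, C1qbp, with upper-quartile factors and 1 with library totals alone, against 0, and 0 in every omission of a library. Over all genes, 861 were called higher with library totals alone, against 1327. Genes called lower numbered 1504 with upper-quartile factors, 2356 with library totals alone and 217 in DESeq2, against 669, and 410 to 522 when single libraries were left out, with 410 without blank 3 and 437 without mtDNA 1. Rises made up 66.5% of calls, but 39.2% with upper-quartile factors, 26.8% with library totals alone and 81.7% in DESeq2. The difference in the C1qc share was -1.83 percentage points, and -3.67 to 0.309 when single libraries were left out, above 0 without blank 1; the cause was not tested. For the C1qb share the difference was 0.941 to 4.27 and for the C1qa share -1.97 to -0.0287. The labels give no pairing, but the titles run blank 1 and mtDNA 2, blank 4 and mtDNA 5, blank 7 and mtDNA 8. With these neighbours as a replicate block, added after seeing the data, 5 members were called higher and 0 lower, and 1387 and 747 of all genes. Deviations from the group means correlated at 0.040 to 0.045 across genes within the neighbours, and at -0.049 to 0.006 between the other blank and mtDNA libraries. Each library correlated best with its own neighbour, weakly, and whether the neighbours are pairs is not settled by these values. Depth limits C4b, Cfb and Serping1, with 4, 45 and 8 reads in all.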
